A study of Rattus norvegicus with 15 samples.

Results

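A 12 Mb stretch of rat chromosome 1, from 158 to 170 Mb of the rn4 assembly, was followed across 5 groups of rats by methylated DNA immunoprecipitation (MeDIP) of peripheral blood DNA. Array probes on the stretch were joined into runs wherever the gap between neighbours was at most 500 bp, and runs of 3 or more probes were kept as regions. This gave 283 of the 16782 regions of the array, holding 2648 of the 2656 probes on the stretch, and a further 6 runs had too few probes. The stretch was chosen by its measured log2 ratios: it was put forward after regions in it had been seen to lead comparisons of diabetic with control rats and of CaD-treated with DR model rats in these same arrays. Differences in those comparisons are therefore given as descriptions. No p-value of a region is printed for them, and counts of regions past a threshold there describe the values that led to the choice and test nothing.

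Male Sprague-Dawley rats aged 20 weeks were used, with 3 rats and 3 arrays in each group. CaD rats received streptozotocin at 45 mg/kg, calcium dobesilate by gavage at 0.25 g/kg per day and intravenous insulin at 1.5 IU per day. The rats that the labels call treated with another Chinse formula, named other formula here, were DR model rats whose dose and insulin the labels do not state. LTF rats received streptozotocin, the formula LTF at 2 g/kg of herb weight per day and the same insulin. DR model rats received streptozotocin and distilled water by gavage, and control rats received citrate buffer in place of streptozotocin. The treated groups thus differ from the DR model in insulin as well as in the compound, at least for CaD and LTF, so these cannot be told apart. The 4 groups given streptozotocin are called diabetic below. No gene expression was measured, so the labelled tissue could not be checked against markers, and a shift in the makeup of blood cells cannot be told apart from a change within cells.

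By general knowledge the stretch holds a large cluster of olfactory receptor genes. The files name no genes, and this was not checked. Olfactory receptors are G protein-coupled receptors that detect odorants in the nose. Their genes stand in long tandem clusters, their coding sequence usually lies in a single exon, and most are silent outside the olfactory epithelium. MeDIP pulls down DNA fragments with an antibody against 5-methylcytosine, so its yield follows both the share of methylated CpG sites and how many CpG sites a fragment holds. On these arrays the MeDIP DNA was labelled with Cy5 and the input DNA with Cy3, and each value below is log2(MeDIP/input), with each array centred on its median probe. A value below 0 means less MeDIP signal per input than at the median probe. Array makers commonly lengthen probes where DNA is rich in A and T, so the probe length of regions is given with the results. Base composition itself was not measured here.

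The regions of the interval were mostly low. Their mean log2 ratio over all 15 arrays had a median of -0.48 and a range of -2.05 to 1.098, against a median of -0.04 over all regions. A mean ratio above 0 was found in 67 interval regions, or 23.7%, against 46.98% of all regions. The regions held 3 to 17 probes with a median of 10, and spanned 361 to 3450 bp with a median of 1671 bp. The median of their mean probe lengths was 53.1 nt, against 48.4 nt over all regions. Over the 283 regions, mean probe length and mean log2 ratio had a Pearson correlation of -0.70, and over the runs elsewhere it was -0.68. These points share arrays and probe design, and the correlations are descriptions across regions.

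The highest mean ratios belonged to chr1:167101842-167102845 with 1.098, chr1:163516722-163518401 with 1.02 and the region starting at 159323691 with 0.88. The lowest were those starting at 166133038 with -2.05, at 166161386 with -1.93 and at 160745272 with -1.68. High and low regions thus lay within the same few megabases. The region with the most probes, 17, was chr1:167343696-167347145, with a mean ratio of 0.35. At the lower edge, the first region inside started at 158021906 and had a mean ratio of -0.82, and the last region before it started at 157964008 and had 0.08. At the upper edge, the last region inside started at 169964837 and had 0.59, and the first region after it started at 170074760 and had -0.24. The interval was bounded by coordinates, and these are single regions on either side of each bound.

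The low values were concentrated between 160 and 167 Mb, a split chosen after the values were seen. The 227 regions there had a median ratio of -0.69 and a mean probe length of 53.3 nt. The 56 regions of the flanks had a median ratio of -0.0025 and a mean probe length of 47.9 nt. By 1 Mb windows, the lowest median was -0.94, between 165 and 166 Mb, where 0 of 23 regions had a mean ratio above 0. The window from 163 to 164 Mb was the highest within the core at -0.26, and 9 of its 27 regions lay above 0. It also had the shortest probes of the core windows, 50.4 nt on average. Neighbouring regions resembled each other: over 282 neighbouring pairs the correlation was 0.44 for the mean ratio and 0.73 for mean probe length. It was 0.12 once the level of runs elsewhere with the same mean probe length, within 1 nt, had been subtracted.

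**Figure D1:**
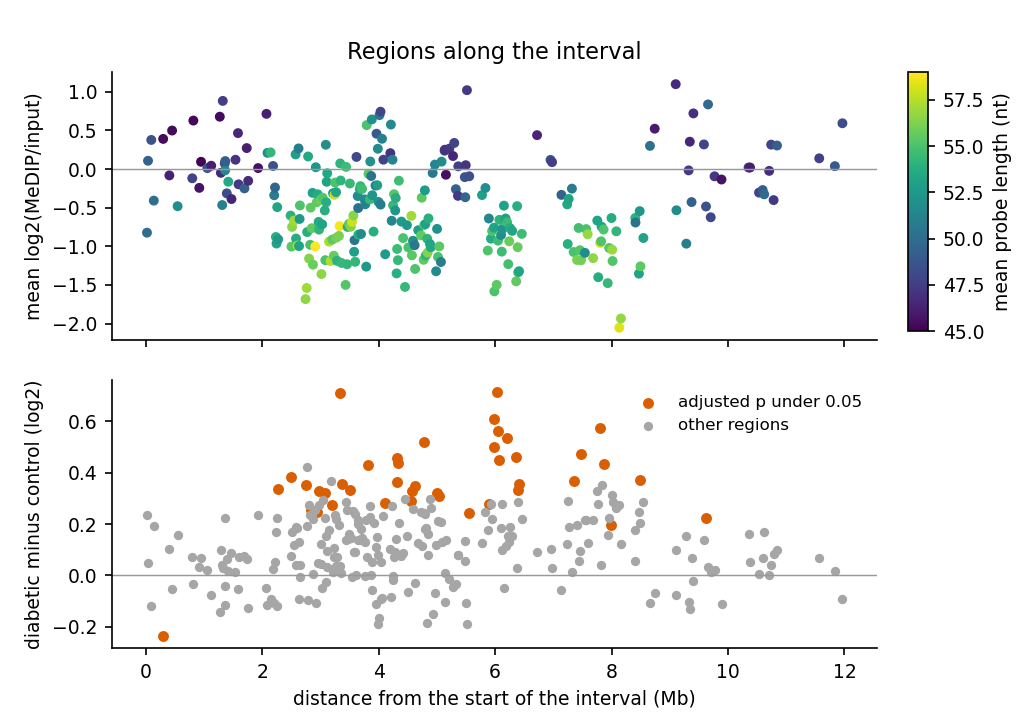
Mean log2(MeDIP/input) over all arrays (top) and the difference of the 4 diabetic groups averaged minus control (bottom) for each of the 283 regions, by distance from the start of the interval in Mb. Colour in the top panel gives mean probe length in nt, orange in the bottom panel marks regions with an adjusted p under 0.05 in limma, and the stretch of low ratios, long probes and positive differences runs from about 2 to 9 Mb.

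Array by array, the median over the 283 regions was -0.44, -0.35 and -0.45 in CaD rats. It was -0.52, -0.44 and -0.47 in other formula rats and -0.43, -0.49 and -0.50 in LTF rats. In DR model rats it was -0.56, -0.64 and -0.46, and in control rats -0.55, -0.56 and -0.70. All 9 treated arrays lay above the 3 control arrays, while the DR model arrays overlapped both the treated and the control arrays. The group means were -0.41 ± 0.05 for CaD, -0.48 ± 0.04 for other formula, -0.47 ± 0.03 for LTF, -0.55 ± 0.09 for the DR model and -0.60 ± 0.08 for control (SD, n = 3 each). DR model replicate 3 was the highest of its group, and control replicate 3 the lowest of all 15 arrays.

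Runs elsewhere in the genome with the same mean probe length had medians slightly below that of the interval in every group. Their median, taken over the matches of each interval region, was -0.49 in CaD, -0.53 in other formula, -0.51 in LTF, -0.58 in DR model and -0.61 in control rats. Taken region by region the sign was the other way: the interval minus its matches, as the median over regions, was -0.0197 ± 0.0184 in CaD, -0.0116 ± 0.0294 in other formula and -0.00254 ± 0.00214 in LTF rats. It was -0.0302 ± 0.0152 in DR model and -0.0547 ± 0.00720 in control rats (SD, n = 3 each). The control arrays, between -0.0610 and -0.0468, lay below all arrays of the diabetic groups, but only just below DR model replicate 2 at -0.0464. Against matches taken from chromosome 1 alone, the interval was instead higher in every group, by 0.114 to 0.139. Control, at 0.125, was then not the lowest, with the DR model at 0.114 and other formula at 0.123. The sign of this small difference thus depends on how it is summarised and on where the matches are drawn from. The place of control among the groups depends on the matches too.

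**Figure D2:**
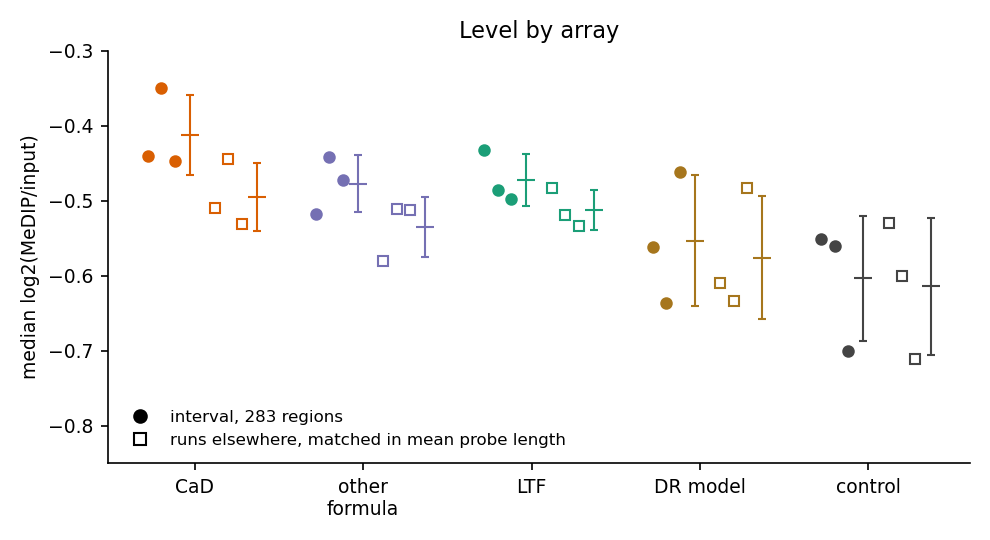
Median log2(MeDIP/input) over the interval (filled circles) and over runs elsewhere matched in mean probe length (open squares), 1 point per array, with CaD, other formula, LTF and DR model left of control. Crossbars are group means with SD (n = 3). The interval and its matches lie within about 0.1 of each other on each array, and the filled circles of the 3 control arrays lie at or below -0.55.

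Set against control, the diabetic groups had higher ratios over most of the interval. The 4 diabetic groups averaged minus control had a median of 0.129 over the 283 regions, against 0.0230 over all regions, and 229 of the 283 differences were positive. As a description, 40 interval regions with a higher ratio in diabetic rats had an adjusted p under 0.05 in limma, with Benjamini-Hochberg adjustment over all 16782 regions. That is 14.1% of the interval, beside 6.35% over all regions. A lower ratio passed in 1 interval region, beside 2.36% over all regions. All 3 control arrays lay below the mean of every diabetic group in 71 regions, or 25.1%, beside 12.1% of all regions. They lay above every diabetic group mean in 4 regions, beside 5.88% of all regions. In 156 regions, 55.1%, each of the 4 diabetic group means was above the control mean, against 34.9% of all regions. The interval was chosen with this contrast known, so nothing further is read from these shares.

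The groups taken singly went the same way relative to control. The median difference was 0.184 for CaD, 0.132 for other formula, 0.150 for LTF and 0.0899 for the DR model, against 0.0353, 0.0139, 0.00620 and 0.0389 over all regions. These 4 comparisons share the control arrays. Regions with a higher ratio and an adjusted p under 0.05 in limma numbered 35 for CaD beside 5.51% over all regions, 9 for other formula beside 1.63%, and 33 for LTF beside 4.84%. Lower ratios passed in 1 region for CaD beside 1.98%, 0 for other formula beside 0.81% and 1 for LTF beside 2.43%. These calls were not stable. With scan session as a random block the higher ones numbered 0 for CaD beside 0.00596%, 0 for other formula beside 0% and 1 for LTF beside 0.0238%. Without CaD replicate 2 there were 0 for CaD beside 0.00596%, and 2 beside 0.423% without CaD replicate 1. For other formula there were 0 beside 0% without its replicate 3, and 1 beside 0.0119% without its replicate 2. For LTF 5 were left beside 0.763% without LTF replicate 2, and 8 beside 1.34% without LTF replicate 1. Without control replicate 3, there were 8 for CaD beside 0.93%, 0 for other formula beside 0.00596% and 12 for LTF beside 1.54%. The shares over all regions thus fell along with the counts. For the DR model limma called 0 of the 283 beside 0% over all regions. An unadjusted p under 0.05 was found for it in 55, or 19.4%, beside 12.7% of all regions. All DR model arrays lay above all control arrays in 28 regions, or 9.89%, beside 8.47% of all regions, and below them in 4, or 1.41%, beside 3.04%.

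The scans of the arrays moved with these differences. Arrays were scanned in 6 sessions on 3 days, and control replicate 1 and DR model replicate 2 each had a session of their own. Within the first day, which held control replicate 1, DR model replicate 2, CaD replicate 3 and all other formula arrays, the median diabetic minus control difference was 0.0183, with a single control array. Within the third day, with control replicates 2 and 3, DR model replicates 1 and 3 and CaD replicates 1 and 2, it was 0.173, and 58 regions were called higher beside 7.45% over all regions. For the DR model minus control, the median was -0.00970 within the first day, 0.138 within the third and 0.0733 within session 5. With scan session as a random block, 13 regions were called higher beside 1.38% over all regions, with a median of 0.115. All LTF arrays shared a session and day of their own, so scan and LTF treatment cannot be told apart. The LTF arrays also had the most spots flagged as outliers and left out, 4.95% ± 1.38 of the interval's probes, against 0.466% ± 0.612 on DR model and 0.466% ± 0.243 on control arrays (SD, n = 3 each). Without control replicate 3, the array lowest in the interval, the count was 10, beside 1.21% called higher over all regions. With DR model replicate 2 left out it was 71, of which 68 were higher, beside 10.3%.

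Position went with the size of the difference. Between 160 and 167 Mb, which holds 227 of the 283 regions, the median difference was 0.159, against 0.0408 in the flanks, and 39 of the 40 regions called higher lay there. This split was made after the values were seen, and probes averaged 53.3 nt there against 47.9 nt in the flanks. The window from 166 to 167 Mb had the largest median, 0.246, over 13 regions. In the window from 164 to 165 Mb, 21 of 22 regions had a positive difference, beside 56.9% of all regions. Of these 22 regions, 7 were called higher, beside 6.35% over all regions. This window was singled out after the values were seen, and its probes averaged 53.2 nt.

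The regions described singly are those with the smallest p among regions whose control arrays all lay on 1 side of the diabetic group means. The first, chr1:163981540-163983288, holds 10 probes with a mean length of 53.2 nt. Its log2 ratio was -0.53, -0.61 and -0.67 in CaD, -0.62, -0.84 and -0.56 in other formula, -0.61, -0.59 and -0.75 in LTF, -0.80, -0.62 and -0.70 in DR model and -1.21, -1.18 and -1.08 in control rats. All 12 diabetic arrays lay above all 3 control arrays, with a difference of 0.50 ± 0.06 (SE). It is the region that had been seen to lead this contrast. In control rats 5 of its probes were not well above background in the MeDIP channel on any array. With only probes well above background on every array, the difference at 163981540 was 0.232, and it no longer passed in limma with normexp background correction (0.0779) or in the authors' deposited table (0.0961).

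At chr1:164074153-164075506, a region of 9 probes with a mean length of 54 nt, the ratio was -0.46, -0.43 and -0.68 in CaD, -0.73, -0.54 and -0.48 in other formula, -0.61, -0.56 and -0.65 in LTF, -0.62, -0.58 and -0.46 in DR model and -1.03, -0.88 and -1.14 in control rats. Again every diabetic array lay above every control array, and the difference was 0.45 ± 0.07 (SE). It had 0 probes that stayed dim throughout a group, and with only probes well above background on every array the difference at 164074153 was 0.408.

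The widest difference among those named was at chr1:161329539-161331217, a region of long probes with a mean of 58.8 nt. Its ratio was -0.48, -0.57 and -0.78 in CaD, -0.70, -0.60 and -0.70 in other formula, -0.39, -0.19 and -0.42 in LTF, -0.66, -1.08 and -0.58 in DR model and -1.52, -1.12 and -1.29 in control rats. The difference was 0.71 ± 0.10 (SE), the diabetic arrays all lay above the control arrays, and DR model replicate 2 came closest to them. Its MeDIP signal averaged -1.87 in DR model and -1.85 in control rats relative to the median probe, whereas its input signal averaged -1.21 in DR model and -0.70 in control rats.

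The other 3 regions higher in diabetic rats were named by the same rule, which asks that the control arrays lie below every diabetic group mean. At chr1:162331662-162333375 the ratio ran from -1.39 to -0.92 over the 12 diabetic arrays and from -1.68 to -1.45 over the control arrays, with a difference of 0.44 ± 0.07 (SE). At chr1:165803357-165804986 it ran from -1.09 to -0.54 over the diabetic arrays and from -1.44 to -1.40 over the control arrays, with a difference of 0.58 ± 0.10 (SE). At chr1:161075046-161076793 it ran from -0.60 to -0.29 over the diabetic arrays and from -0.94 to -0.71 over the control arrays, with a difference of 0.32 ± 0.05 (SE). In none of these 3 did the diabetic and control arrays overlap, an outcome that the rule favours. Each held probes that stayed dim in the MeDIP channel, up to 6 of 10 at 165803357. Mean probe length was 54.4 nt at 162331662, 58.1 nt at 165803357 and 53.8 nt at 161075046. With only probes well above background on every array, the difference was 0.514 at 162331662, where the call was lost with the median of the probes (0.257). With the same filter it no longer passed at 165803357 (0.225), at 161075046 (0.248) or at 161329539 (0.294). In the authors' deposited table it no longer passed at 165803357 (0.0120), 161075046 (0.0655) or 161329539 (0.231).

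**Figure D3:**
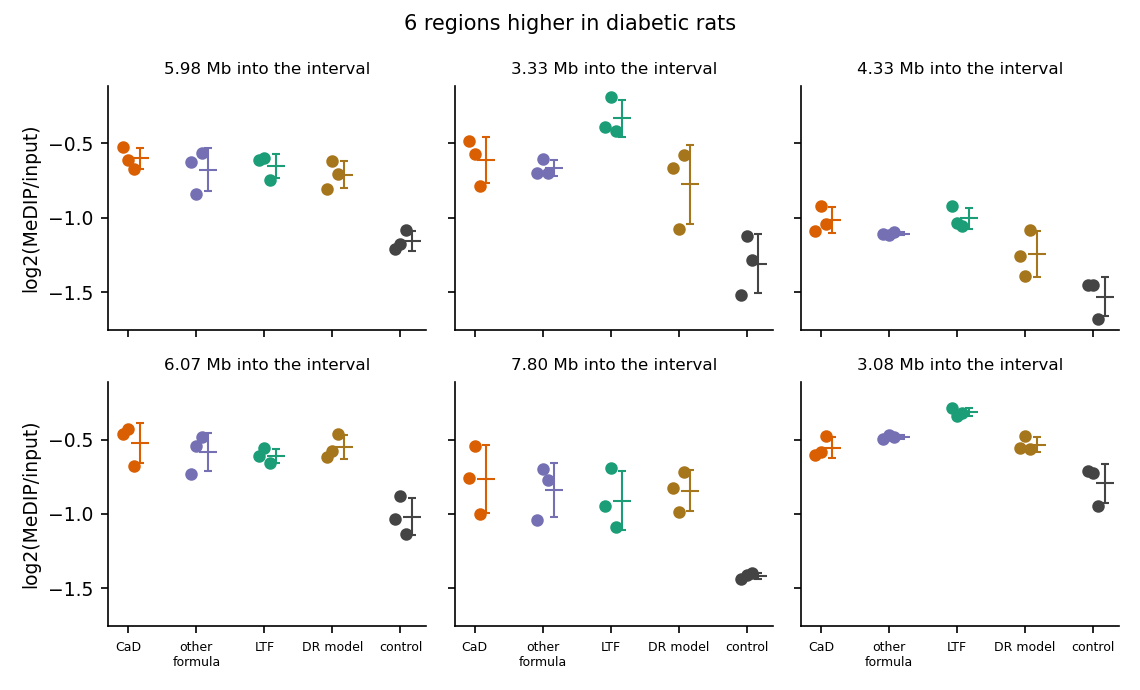
log2(MeDIP/input) of the 6 named regions that were higher in diabetic rats, 1 point per array and the group mean with SD (n = 3), with control at the right of each panel. Panel titles give the distance from the start of the interval in Mb, and in each panel the 12 diabetic arrays lie above the 3 control arrays. The rule that named these regions favours such separation.

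Only 4 regions met the same rule in the other direction, with smaller differences. At chr1:158300091-158301810, in the flank, the ratio was 0.41, 0.27 and 0.38 in CaD, 0.36, 0.28 and 0.39 in other formula, 0.26, 0.08 and 0.41 in LTF, 0.41, 0.51 and 0.34 in DR model and 0.75, 0.48 and 0.51 in control rats. DR model replicate 2 overlapped the control arrays, and the difference was -0.24 ± 0.07 (SE). It was the only interval region called lower, and with only probes well above background on every array it was -0.0580 and no longer passed. The call was also lost with normexp (-0.0218), in the authors' deposited table (-0.0863) and with the median of the probes (-0.0904). It was lost too with scan session as a random block and when most of the single arrays were left out. The differences were -0.19 ± 0.06 at chr1:161986707-161987904, -0.10 ± 0.05 at chr1:167323662-167325354 and -0.11 ± 0.07 at chr1:160207059-160208766 (SE). None of these 3 passed the threshold in limma, and each turned in sign under at least 1 other setting.

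The DR model alone against control named 2 of the same regions as higher. The difference was 0.45 ± 0.08 at 163981540 and 0.47 ± 0.09 at 164074153 (SE). It was -0.34 ± 0.09 at chr1:160258742-160260325 and -0.29 ± 0.12 at chr1:162835162-162836177 (SE). With only probes well above background on every array the difference was -0.00467 at 160258742 and -0.114 at 162835162, and with normexp it was -0.0641 and -0.0377. Mean probe length was 53.3 nt at 160258742 and 54.1 nt at 162835162. At 160258742 the ratio was -0.81, -0.74 and -0.66 in DR model and -0.19, -0.38 and -0.63 in control rats, so the groups were separated only narrowly. At 162835162 it was -1.26, -0.98 and -0.91 in DR model and -0.65, -0.84 and -0.77 in control rats. No DR model region of the interval passed in limma, as above.

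The 2 channels were then taken apart, each as the log2 signal relative to the median probe of its array. The input signal of the interval averaged -0.29 ± 0.09 in CaD, -0.20 ± 0.08 in other formula, -0.29 ± 0.02 in LTF, -0.20 ± 0.08 in DR model and -0.07 ± 0.04 in control rats (SD, n = 3 each). All 12 diabetic arrays lay below the lowest control array, with other formula replicate 1 at -0.108 next to control replicate 2 at -0.107. The MeDIP signal averaged -0.66 ± 0.04 in CaD, -0.61 ± 0.04 in other formula, -0.63 ± 0.04 in LTF, -0.66 ± 0.04 in DR model and -0.53 ± 0.09 in control rats. Control replicate 3, at -0.63, lay among the diabetic arrays in that channel. The higher ratios in diabetic rats thus went with lower signals in both channels, more so in the input.

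Over regions, the input signal was lower in diabetic rats in 202 of 283 and the MeDIP signal in 188. The median difference was -0.195 for input and -0.0890 for MeDIP, against 0.0772 and 0.0355 over all regions. The matched runs elsewhere went the same way, with medians of -0.152 for input and -0.128 for MeDIP. In the 40 regions called higher, the median difference of the ratio was 0.36, with a MeDIP difference of -0.0281 and an input difference of -0.371. The input was lower in diabetic rats in 37 of the 40 and the MeDIP signal in 22. These 40 were selected by a higher ratio on the same arrays, and a lower input raises the ratio. Their split between channels is thus partly set by the selection, and nothing is read from it. The share of interval probes well above background in the MeDIP channel was 67.2% to 83.1% per array, against 77.7% to 90.1% of probes elsewhere. In the input channel it was 87.7% to 96.7% in the interval and 92.0% to 96.8% elsewhere.

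**Figure D4:**
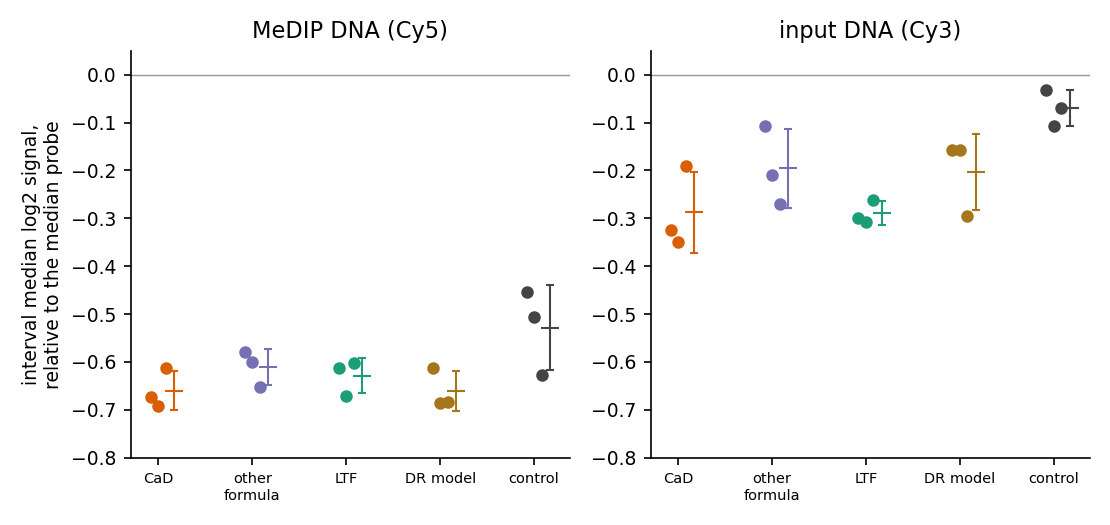
Median log2 signal of the 283 regions in the MeDIP and the input channel, relative to the median probe of the same channel and array, 1 point per array, the group mean with SD (n = 3) and control at the right. The input signal averages -0.07 in control rats and between -0.29 and -0.20 in the diabetic groups.

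Probe length also went with the difference, inside and outside the interval. In regions with mean probe length of 45 to 47 nt, the median diabetic minus control difference was -0.0353 over 27 interval regions and -0.0236 over 5284 runs elsewhere. In those over 53 to 56 nt it was 0.218 over 119 interval regions and 0.134 over 1437 runs elsewhere. In those over 56 to 60 nt it was 0.195 over 25 interval regions and 0.232 over 830 runs elsewhere. The interval had the larger share called higher in 1 of the 5 length bins, over 53 to 56 nt, with 25.2% of 119 regions against 15.2% of the runs elsewhere. In the other bins its share was the smaller. It was 0% against 1.87% at 45 to 47 nt, 4% against 4.22% over 47 to 50 nt, 6.45% against 7.94% over 50 to 53 nt and 16% against 27.5% over 56 to 60 nt.

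Each interval region was also set against its own matches. The median difference of the matches was 0.0701, against 0.129 for the interval itself, and 183 of 283 regions lay above their matches. On average 11.6% of a region's matches were called higher. With matches taken on mean probe length and mean log2 ratio together, the median was 0.0816 and 182 regions lay above. Over the 283 regions the correlation of mean log2 ratio with the diabetic minus control difference was -0.65, and over the runs elsewhere it was -0.57, so low regions tended to have the larger differences in both. The part of probe length and of the overall level in the difference was not tested.

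**Figure D5:**
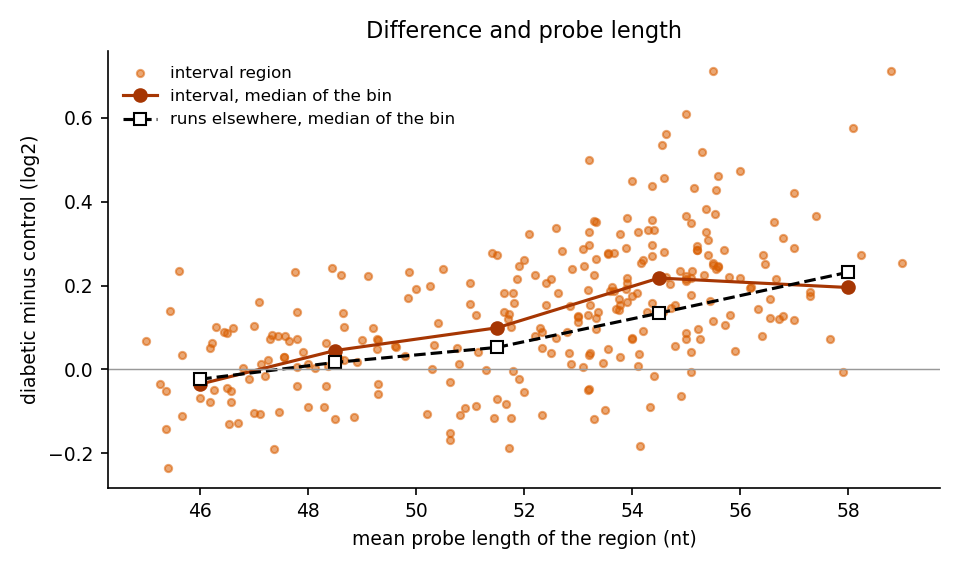
Diabetic minus control difference of each interval region by its mean probe length in nt, with the median of each length bin for the interval (filled circles) and for runs elsewhere (open squares). Both medians are near 0 at 45 to 47 nt and above 0.1 beyond 53 nt, and the interval lies above the runs elsewhere in the middle bins only.

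Along a region, the ratio was lowest near the middle. In bins of 200 bp around the centre, in coordinate order since the strand of genes is not known here, the mean over probes was -0.68 in the bin centred at 100 bp, where probes averaged 54.3 nt. At 900 bp to either side it was -0.37 and -0.36, with probes of 51.7 nt. Probes elsewhere of the same lengths averaged -0.57 in that middle bin and -0.39 and -0.36 at 900 bp to either side, so they dipped there too. At 500 bp to either side the interval averaged -0.39 and -0.49, against -0.25 and -0.35 for those probes. The gap to probes of the same lengths was thus not largest in the middle. At 100 bp the group means were -0.60 in CaD, -0.65 in other formula, -0.60 in LTF, -0.74 in DR model and -0.82 in control rats.

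The treatments were compared with the DR model, which asks whether CaD, the other formula or LTF moved the signal away from that of untreated diabetic rats. These 3 comparisons share the DR model arrays. CaD minus DR model was among those that led to the choice, so counts and calls in the other 2 are descriptions too. The median difference over the interval was 0.0870 for CaD, 0.0317 for other formula and 0.0611 for LTF, against 0.00589, -0.0195 and -0.0234 over all regions. In limma 0 interval regions passed for CaD, beside 0% over all regions, and as a description 47, or 16.6%, had an unadjusted p under 0.05, beside 15% of all regions. For other formula 0 passed, beside 0%, with 44, or 15.5%, at an unadjusted p under 0.05 in limma, beside 15.1% of all regions. For LTF 0 passed, beside 0.238% higher and 0.661% lower over all regions. An unadjusted p under 0.05 in limma was found for LTF in 61, or 21.6%, beside 19.4% of all regions. All CaD arrays lay above all DR model arrays in 32 interval regions beside 6.65% of all regions, and below them in 16 beside 9.79%. For other formula these were 27 beside 5.57% and 21 beside 13%, and for LTF 38 beside 6.71% and 23 beside 13.6%. As shares of the interval, the higher ones were 11.3% for CaD, 9.54% for other formula and 13.4% for LTF. The limma counts depended on DR model replicate 3, since leaving it out gave 26 higher and 5 lower for CaD, 11 and 9 for other formula and 22 and 8 for LTF, beside 3.8%, 2.1% and 2.88% called higher over all regions. Within scan session 6 the CaD minus DR model median was 0.0206 and 0 regions passed, and within the first day the other formula minus DR model median was 0.0651, with a single DR model array. No session or day held both LTF and DR model arrays.

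The region that led all 3 was chr1:164180391-164181229, a short region of 5 probes with a mean length of 53 nt, and the CaD comparison had been seen to be led by it beforehand. Its ratio was -0.36, -0.27 and -0.52 in CaD, -0.30, -0.48 and -0.70 in other formula, -0.40, -0.59 and -0.66 in LTF, -1.13, -1.17 and -0.82 in DR model and -0.64, -0.82 and -0.73 in control rats. Every treated array lay above every DR model array. The difference from the DR model was 0.66 ± 0.11 for CaD, 0.55 ± 0.11 for other formula and 0.49 ± 0.11 for LTF (SE). These differences are descriptions, since all 3 use the DR model arrays with which the region was seen. With normexp they were 0.105, 0.0769 and 0.127, and they were 0.188, 0.111 and 0.147 in the authors' deposited table, in the same order. In DR model rats 2 of the 5 probes were not well above background in the MeDIP channel on any array, and too few probes were left to give a value with the filter on background.

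At chr1:160938395-160940169, with a mean probe length of 55.5 nt, the ratio was -0.16, -0.23 and -0.34 in CaD, -0.29, -0.24 and -0.27 in other formula, -0.28, -0.32 and -0.41 in LTF, -0.68, -0.81 and -0.52 in DR model and -0.55, -0.49 and -0.84 in control rats. The treated arrays again lay above all DR model arrays. The difference was 0.42 ± 0.09 for CaD and 0.40 ± 0.09 for other formula (SE), and neither passed in limma. With only probes well above background on every array the difference was 0.0377 for CaD and turned to -0.0495 for other formula, and with normexp it was 0.0745 for CaD and 0.0303 for other formula.

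At chr1:166659914-166661467 the treated groups were lower than the DR model. The ratio was 0.24, 0.23 and 0.30 in CaD, 0.19, 0.20 and 0.22 in other formula, 0.15, 0.23 and 0.26 in LTF, 0.43, 0.50 and 0.39 in DR model and 0.42, 0.40 and 0.34 in control rats. The treated and DR model arrays did not overlap, and the control arrays lay nearer to the DR model. The difference was -0.18 ± 0.06 for CaD, -0.24 ± 0.06 for other formula and -0.22 ± 0.06 for LTF (SE), and none passed in limma. With only probes well above background on every array the values were -0.18, -0.24 and -0.22 in the same order. Other formula and LTF were then called in limma, as a description, and CaD was not. With normexp the differences were -0.118, -0.131 and -0.171, and none passed.

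The rule named each of the remaining regions for a single treatment, but 3 of them were separated from the DR model in every treatment. At chr1:163516722-163518401, named for CaD, the ratio was 0.90, 0.82 and 0.83 in CaD and 1.18, 1.38 and 0.97 in DR model rats, with a difference of -0.33 ± 0.09 (SE) and a mean probe length of 47.4 nt. The CaD difference did not pass in limma. In the authors' deposited table it was -0.217 and was called, as a description, and with normexp it was -0.208 and was not called.

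At chr1:163775373-163777050, named for other formula, the ratio was -0.23, -0.35 and -0.38 in CaD, -0.30, -0.54 and -0.47 in other formula, -0.44, -0.43 and -0.34 in LTF and -0.04, -0.05 and -0.18 in DR model rats. Every treated array was below every DR model array. The difference was -0.23 ± 0.09 for CaD, -0.35 ± 0.09 for other formula and -0.31 ± 0.09 for LTF (SE), and none passed in limma. For other formula it was -0.0241 with normexp and -0.0848 with only probes well above background on every array.

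At chr1:161716126-161717851, named for LTF, the ratio was -0.14, -0.12 and -0.17 in CaD, -0.28, -0.09 and -0.29 in other formula, -0.07, -0.25 and -0.03 in LTF and -0.51, -0.45 and -0.35 in DR model rats. Every treated array was above every DR model array. The difference was 0.29 ± 0.07 for CaD, 0.22 ± 0.07 for other formula and 0.32 ± 0.07 for LTF (SE), and none passed in limma. For LTF it turned to -0.0578 with only probes well above background on every array.

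At chr1:158039788-158041572, in the flank and also named for LTF, the ratio was 0.18, 0.21 and 0.08 in CaD, 0.15, 0.09 and 0.01 in other formula, -0.15, 0.02 and -0.04 in LTF and 0.24, 0.39 and 0.22 in DR model rats. Every treated array was below every DR model array, narrowly so for CaD. The difference was -0.13 ± 0.09 for CaD, -0.20 ± 0.09 for other formula and -0.35 ± 0.09 for LTF (SE), and none passed in limma. With only probes well above background on every array it was -0.38 for LTF and was called in limma, again as a description. Mean probe length was 53 nt at 163775373, 54.7 nt at 161716126 and 49.3 nt at 158039788. Whether any region differed between treatments was not tested.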

How the data were processed

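Per the labels, MeDIP DNA (Cy5) and input DNA (Cy3) of 15 rats were hybridised to 2-colour Agilent arrays, 3 per group. Feature Extraction 11.0.1.1 wrote the scanner files, with rn4 positions, per the file headers. Each spot has a deposited intensity per channel, background-subtracted and dye-normalised, and the authors' log10 ratio. The value table of the authors was read as log2 and serves only as an alternative, since its scale, its centring and which way it runs are unstated, and its column medians lay between 0.0083 and 0.0451. The submitters' processing notes name limma, with no role or version. Of 172669 probes, outlier-flagged spots (235 to 10700 per array) were left out, and no interval spot was saturated.

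Computed here were log2(Cy5/Cy3), the array's median subtracted with no loess or quantile step, and region means. Limma 3.58.1 in R 4.3.3 fitted 5 group means over 16782 regions, after a check on simulated data, with Benjamini-Hochberg adjustment per comparison and a threshold of 0.05. Regions are named singly by smallest p in each direction (6 for diabetic against control, 2 for the other comparisons) among those whose arrays were separated, and by the highest and lowest levels, most probes and edges. The members and lists were chosen with earlier results of these data known. Files name no genes, and no rn4 sequence was used here.

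The labels call the arrays biological replicates. Same-numbered arrays did not deviate together: over 30 pairs, r was -0.424 to 0.331, and 5 exceeded 0.1, so the numbers do not pair arrays. The number of arrays limits the precision.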

Additional observations from a re-analysis of the deposited data

How the results depend on the processing

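The limits of these results are the 3 arrays per group, the scan sessions that go with groups, and probes near background in the MeDIP channel. Of the alternatives that change a setting, 166 values kept to their margin and 67 moved. For median differences the margin was 0.0636, the pooled SD of interval medians between arrays of a group. It exceeds the medians of other formula and LTF minus DR model, so values that kept to it can be near 0 or turned in sign. Values within the first scan day rest on 1 control and 1 DR model array, each assumed to vary like the other groups. Counts below are interval regions called, with the percentage of all regions called higher in the same setting. Medians are of log2 differences over the interval.

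For diabetic minus control, 40 higher (6.35%) and 1 lower were called in the reported setting. Called were 71 with normexp (11.3%), 11 with quantile normalization (1.75%) and 13 with scan as a random block (1.38%), all higher. Without the arrays with a scan of their own there were 74, again all higher (10.7%). With the median of the probes there were 22, of which 20 were higher (2.56%) and 2 lower. The shares over all regions thus largely rose and fell along with the counts. Within the first scan day 1 control array is left, and only the median is given. The median was 0.0539 with quantile normalization, 0.0316 in the authors' table and 0.0183 within the first day. For DR model minus control, 0 higher (0.0238%) and 1 lower were called with scan as a fixed block. Called higher were 3 within the third day (0.262%) and 3 without the arrays with a scan of their own (0.53%). The median was -0.00970 within the first day. The median of CaD minus control was 0.0843 with normexp, 0.0593 with quantile normalization, 0.0310 in the authors' table, 0.119 with scan as a fixed block and 0.0537 within the first day. For other formula minus control it was 0.0624 with normexp, 0.0333 with quantile normalization, 0.0203 in the authors' table and 0.0385 within the first day. For LTF minus control it was 0.0783, 0.0804 and 0.0462 under normexp, quantile normalization and the authors' table.

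For CaD minus DR model the median was 0.0227 with quantile normalization, -0.000355 in the authors' table and 0.0206 both with scan as a fixed block and within scan 6, and 1 region was called in the authors' table and 1 within the first day. For other formula minus DR model, 3 were called with probes above background on every array and 24 within the first day. All of those 3 were lower, with 0.168% of all regions called higher, and the 24 rest on 1 DR model array and are not read further. For LTF minus DR model, 8 were called with normexp, 4 of them higher (0.822%), and 4 with quantile normalization, 3 of them higher (0.381%). With probes above background on every array there were 9, of which 2 were higher (0.833%) and 7 lower. There were 3 with the median of the probes, all higher (0.316%), and 5 with outlier spots kept, 2 of them higher (0.381%).

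Interval minus matched runs moved with the match. Within 2 nt it was -0.0392 in CaD, -0.0227 in LTF, -0.0476 in DR model and -0.0745 in control rats. With length and ratio matched it was 0.0126, 0.0169, 0.00315 and -0.0285 in the same order, and with normexp 0.00612, 0.0127, -0.000210 and -0.00968. On chromosome 1 only it was 0.127 in CaD, 0.123 in other formula, 0.139 in LTF, 0.114 in DR model and 0.125 in control rats, and LTF was -0.00612 with quantile normalization. With raw median signals the MeDIP level was -0.244 in CaD, -0.196 in other formula, -0.186 in LTF, -0.174 in DR model and -0.0787 in control rats, and the input level -0.0531, 0.00928, -0.0210, 0.00290 and 0.104 in the same order.

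Leaving out single arrays gave 10 to 71 calls for diabetic minus control. The lowest was without control replicate 3 (1.21%). The highest was without DR model replicate 2, with 68 higher (10.3%) and 3 lower. There were 26 without CaD replicate 2 (4.05%) and 27 without other formula replicate 3 (4.24%). For DR model minus control there were 0 to 1. For CaD, other formula and LTF minus DR model there were 0 to 31, 0 to 20 and 0 to 30. Each was highest without DR model replicate 3. Higher calls were then 26 (3.8%), 11 (2.1%) and 22 (2.88%), and lower calls 5, 9 and 8, in the same order. The median of diabetic minus control stayed between 0.0959 and 0.162. With the replicate number as a block, which the labels do not make a pairing, 30 regions were called for diabetic minus control (4.47%).

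Of the named regions' values, 669 kept their direction and side of the threshold, 25 gained and 32 lost a call, and 6 turned. Turned were 160207059 (0.00487) for diabetic minus control, 160938395 (-0.0495) for other formula and 161716126 (-0.0578) for LTF minus DR model, all with probes above background on every array, and, for diabetic minus control, 161986707 (0.0162) and 167323662 (0.00795) with the median of the probes and 167323662 (0.0175) with normexp. The cause was not tested. Scan as a fixed block could not be fitted for LTF or for all diabetic groups.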
